A study of Mus musculus with 19 samples.

Results

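The genes described are 9 genes of fatty acid oxidation and the fasting response, *Ppara*, *Cpt1a*, *Cpt2*, *Acadm*, *Acadl*, *Acadvl*, *Hadha*, *Pdk4* and *Angptl4*, chosen by symbol from the 24552 genes listed once in each expression table. All 9 were listed in both tissues, and 8 of them in the cornea and 9 in the conjunctiva reached the mean of 10 normalized counts needed for a test. Their mRNA was measured by bulk RNA sequencing in 19 libraries from female mice, C57BL/6 in the labels and C57BL/6J in the study's methods. Mice either ate ad libitum (AL) or were kept on calorie restriction (CR), in which a reduced ration was given. The cornea gave 5 libraries for each diet, and the conjunctiva 4 for AL and 5 for CR. The labels were followed for this, while the legends of the study differ among themselves, and one gives the conjunctiva sizes the other way round. No allele or drug distinguishes the groups, and all carry the codes 6M and 50W in their titles, which the labels do not explain. The study describes the mice as adults entering middle age when CR began and in another place as young, the word the series text also uses. By the study's methods the cornea samples are epithelium scraped from the eye and the conjunctiva samples are excised whole tissue. The 2 feeding cohorts of the study differed in diet, and feeding CR mice once a day is described with the second cohort. Which cohort gave these libraries is not given in the sources used here. Libraries are named by diet and the number in their title, and libraries of both tissues with the same title may come from 1 mouse, since the study took more than 1 tissue from each, but this is not stated for single libraries.

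Fatty acids enter mitochondria as carnitine esters. Cpt1a, the liver-type carnitine palmitoyltransferase of the outer membrane, makes the ester and is the rate-limiting step, and Cpt2 of the inner membrane turns it back into acyl-CoA. Acyl-CoA dehydrogenases then start each round of beta-oxidation, with Acadvl, Acadl and Acadm acting on very long, long and medium chains, and Hadha carries the next steps on long chains as the alpha subunit of the trifunctional protein. Ppara is the nuclear receptor that switches many of these genes on in fasted liver, where it binds DNA together with a retinoid X receptor. Pdk4 is a kinase that shuts pyruvate out of the mitochondrial acetyl-CoA pool, and Angptl4 is a secreted inhibitor of lipoprotein lipase. Both are classic fasting-induced genes.

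The promoter sequences were examined because Ppara is a known regulator of several of these genes. RefSeq promoter windows on build GRCm38.p6 (250 bases before and 50 after the start) were matched for 8 of the 9 genes, *Angptl4* being the exception. The motif AGGTCA that nuclear receptors read was found on either strand in 3 of the 8, *Cpt1a*, *Acadm* and *Acadvl*, and in 16.3% of all 32851 windows. The direct repeat DR1, which PPAR and its partner bind (AGGTCANAGGTCA, a repeat of the first motif), was in 0 of the 8 and in 0.0396% of all windows. With up to 2 mismatches it was still in 0 of the 8, against 3.86% of all. The E-box CACGTG was in 0 of the 8, against 7.15% of all. The 3 windows with AGGTCA are shown from base 250 to base 31 before the start, 220 bases each, with the motif in capitals (TGACCT where it lies on the other strand).
Cpt1a: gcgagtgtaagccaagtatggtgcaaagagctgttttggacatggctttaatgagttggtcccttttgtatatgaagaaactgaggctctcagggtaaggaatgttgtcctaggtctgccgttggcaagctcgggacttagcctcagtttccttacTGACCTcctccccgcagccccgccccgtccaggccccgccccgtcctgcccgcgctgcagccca
Acadm: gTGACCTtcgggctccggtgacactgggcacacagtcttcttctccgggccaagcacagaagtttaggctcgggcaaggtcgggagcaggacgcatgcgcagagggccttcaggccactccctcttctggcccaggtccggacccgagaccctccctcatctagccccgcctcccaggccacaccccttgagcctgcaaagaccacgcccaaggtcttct
Acadvl: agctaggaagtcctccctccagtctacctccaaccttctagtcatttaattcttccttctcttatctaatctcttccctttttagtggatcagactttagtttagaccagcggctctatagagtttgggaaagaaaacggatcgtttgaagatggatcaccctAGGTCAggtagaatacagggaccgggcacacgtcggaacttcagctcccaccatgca
The *Cpt1a* stretch lies at chr19:3323051-3323270 on the plus strand, with its motif 94 to 89 bases before the start. In GENCODE it falls in an intron of a transcript that starts further upstream. The *Acadm* stretch lies at chr3:153944674-153944893 and the *Acadvl* stretch at chr11:70015459-70015678, both on the minus strand and outside annotated exons. Their motifs start 249 and 87 bases before the start.

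Each cornea library held between 10354125 and 14681223 counted reads, of which the 9 genes took 5285 to 7123. Conjunctiva libraries held between 10726717 and 14433441, of which they took 6331 to 11423. The tables were scaled separately for each tissue, so levels are compared only within a tissue. Normalized counts are reads divided by the authors' size factor of the library. Between genes they may also depend on transcript length, according to the library type, so no order of genes by level is given. Corneal epithelium markers (*Krt12*, *Krt5*, *Krt14*, *Pax6*, *Aldh3a1* and *Tkt*) were all detected in the cornea and summed to between 481422 and 700996 normalized counts. Conjunctival epithelium markers (*Krt13*, *Krt4*, *Krt19*, *Muc5ac* and *Agr2*) were all detected in the conjunctiva, with sums between 27605 and 74973. The share of genes with 0 reads, a sign of library complexity, was 38.7% to 45.2% in AL and 39.9% to 47.6% in CR cornea libraries, and 33.6% to 37.9% and 33.9% to 40.1% in the conjunctiva. In bulk tissue, fewer cells of a type and less RNA per cell cannot be told apart.

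In the cornea, no gene of the 9 passed the test for a change under CR, but 4 of the 8 tested had an unadjusted p under 0.05 and all of these were lower under CR. They were *Ppara*, *Cpt1a*, *Acadvl* and *Hadha*. A gene was called at a Benjamini-Hochberg adjusted p under 0.05 in limma with a fold over 1.5, which 0 of these 8 and 1.22% of all 12278 tested genes met. Among all tested genes, 9.55% had an unadjusted p under 0.05 on the lower side and 8.52% on the higher side, where 0 of the 8 did. Across the 8, 6 had a log2 change below 0 (7 with quantile or upper-quartile scaling, where *Acadm* turned) and the median was −0.25, against −0.03 for all tested genes, of which 46.9% lay above 0.

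*Cpt1a* had 876, 756, 779, 707 and 864 normalized counts in AL 1 to 5 of the cornea, and 547, 593, 749, 674 and 494 in CR 1, 2, 3, 4 and 7. Of the CR libraries, 4 of 5 lay below every AL library, and CR 3 lay among the AL values. The means were 796 ± 72.0 (SD, n = 5) and 611 ± 101.4 (n = 5), a log2 change (CR minus AL) of −0.39 ± 0.13 (SE, 95% interval −0.67 to −0.12, limma adjusted p = 0.133).

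*Ppara*, the receptor, had 376, 421, 282, 272 and 459 normalized counts in AL 1 to 5 and 381, 291, 212, 185 and 129 in CR 1, 2, 3, 4 and 7. CR 1 stood within the upper AL values while 3 CR libraries stood below all AL libraries. The log2 change was −0.66 ± 0.25 (SE, n = 5 per diet, limma adjusted p = 0.194). Without CR 1 it was −0.85 and passed (limma adjusted p = 0.0449). Over 21 alternatives the log2 change was −0.85 to −0.28 and the adjusted p 0.0413 to 0.8897.

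*Acadvl*, the very long chain dehydrogenase, was one of 2 of the genes whose diets did not overlap in the cornea. It had 509, 370.3, 389, 344 and 548 normalized counts in AL 1 to 5 and 331, 201, 302, 336 and 327 in CR 1, 2, 3, 4 and 7. Every CR library lay below every AL library, as for 1.89% of all tested genes, whereas 0 of the 8 had all CR libraries above (2.08% of all). The log2 change was −0.53 ± 0.17 (SE, n = 5 per diet, limma adjusted p = 0.132), and without AL 4, the lowest AL library, it was −0.60 and passed (adjusted p = 0.0496). Over 21 alternatives it was −0.68 to −0.28, with adjusted p 0.0253 to 0.8804.

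*Hadha* was the other gene without overlap. Its values were 1048, 1131, 1215, 1177 and 1038 normalized counts in AL 1 to 5 and 863, 887, 927, 957 and 1035 in CR 1, 2, 3, 4 and 7. The gap was narrow, since CR 7 at 1035 lay just under AL 5 at 1038. The log2 change was −0.26 ± 0.10 (SE, n = 5 per diet, limma adjusted p = 0.198).

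The remaining cornea genes overlapped between diets. *Cpt2*, with 41.8 to 105 normalized counts, had a fitted log2 difference of −0.24 ± 0.28 (SE, limma adjusted p = 0.681). *Acadl* had 1116 ± 133 under AL and 1043 ± 91.9 under CR (SD, n = 5 each, log2 change −0.09 ± 0.12). *Acadm*, the medium chain dehydrogenase, had 2224 ± 220.3 and 2220.1 ± 104 (SD, n = 5 each). Its log2 change was 0.0016 ± 0.10 (SE), with a 95% interval of −0.21 to 0.21.

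*Angptl4* had 41.8, 32.8, 40.4, 22.1 and 33.0 normalized counts in AL 1 to 5 and 52.6, 68.8, 72.7, 39.9 and 28.8 in CR 1, 2, 3, 4 and 7. It was above every AL library in 3 of 5 CR libraries, and below all but AL 4 in CR 7. The log2 change was 0.57 ± 0.36 (SE, limma adjusted p = 0.411). *Pdk4* had 0 reads in 9 of the 10 cornea libraries and 3 reads in AL 3, where a count of 0 allows up to 3 reads or 2.27 to 3.30 normalized counts, so no change could be measured at this depth.

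Some of the cornea values also followed properties of the libraries. Over the 10 cornea libraries, the Pearson r with the share of genes at 0 was −0.74 for *Ppara*, −0.57 for *Cpt1a*, −0.64 for *Acadvl* and −0.29 for *Hadha*. With that share as a covariate the log2 change of *Ppara* was −0.28 and those of *Cpt1a*, *Acadvl* and *Hadha* were −0.33, −0.37 and −0.32. Lacrimal gland markers summed to between 30175 and 114288 normalized counts in AL and between 23382 and 36188 in CR cornea libraries. Of their 9 genes 7 were tested, all 7 were lower under CR, and none was at 0 in all libraries. *Aqp5*, a water channel that the corneal epithelium also makes, is on that list, with 30146 to 51562 normalized counts in AL and 23368 to 36184 in CR cornea libraries. In CR libraries, and in the AL libraries other than AL 1, it made up nearly all of the marker sum. Mean normalized counts under AL and CR were 4275 and 1.40 for *Obp1a*, 3449 and 0.59 for *Scgb1b2*, and 3914 and 2.19 for *Scgb2b2*. *Obp1b* had 1023 and 0, and the median log2 change of the 7 was −6.49. AL 1 held most of the AL counts of the list outside *Aqp5*. Its marker sum was 114288, against 30175 to 51937 in the other AL libraries. The r with the marker sum was 0.75 for *Cpt1a*, 0.74 for *Acadvl*, 0.60 for *Ppara* and 0.33 for *Hadha*. With that sum as a covariate, a choice made after the data were seen, the log2 changes of *Cpt1a*, *Acadvl* and *Ppara* were −0.24, −0.28 and −0.41. Macrophage markers (5, each detected) summed to 270 to 376 in AL and 117 to 279 in CR cornea libraries. The r with this sum was 0.75 for *Ppara*, 0.64 for *Cpt1a*, 0.32 for *Hadha* and 0.21 for *Acadvl*. Conjunctival epithelium markers (5, each detected) summed to 25608 to 41989 in AL and 30629 to 63447 in CR cornea libraries. CR 7 held the highest of these sums and the lowest corneal epithelium sum (481422). The 4 tested were all higher under CR (median log2 change 0.63). The r with their sum was −0.71 for *Ppara*, −0.67 for *Cpt1a*, −0.27 for *Acadvl* and 0.23 for *Hadha*. The points of these correlations share the library and the diet, and the part of these properties in the result was not tested.

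**Figure D1:**
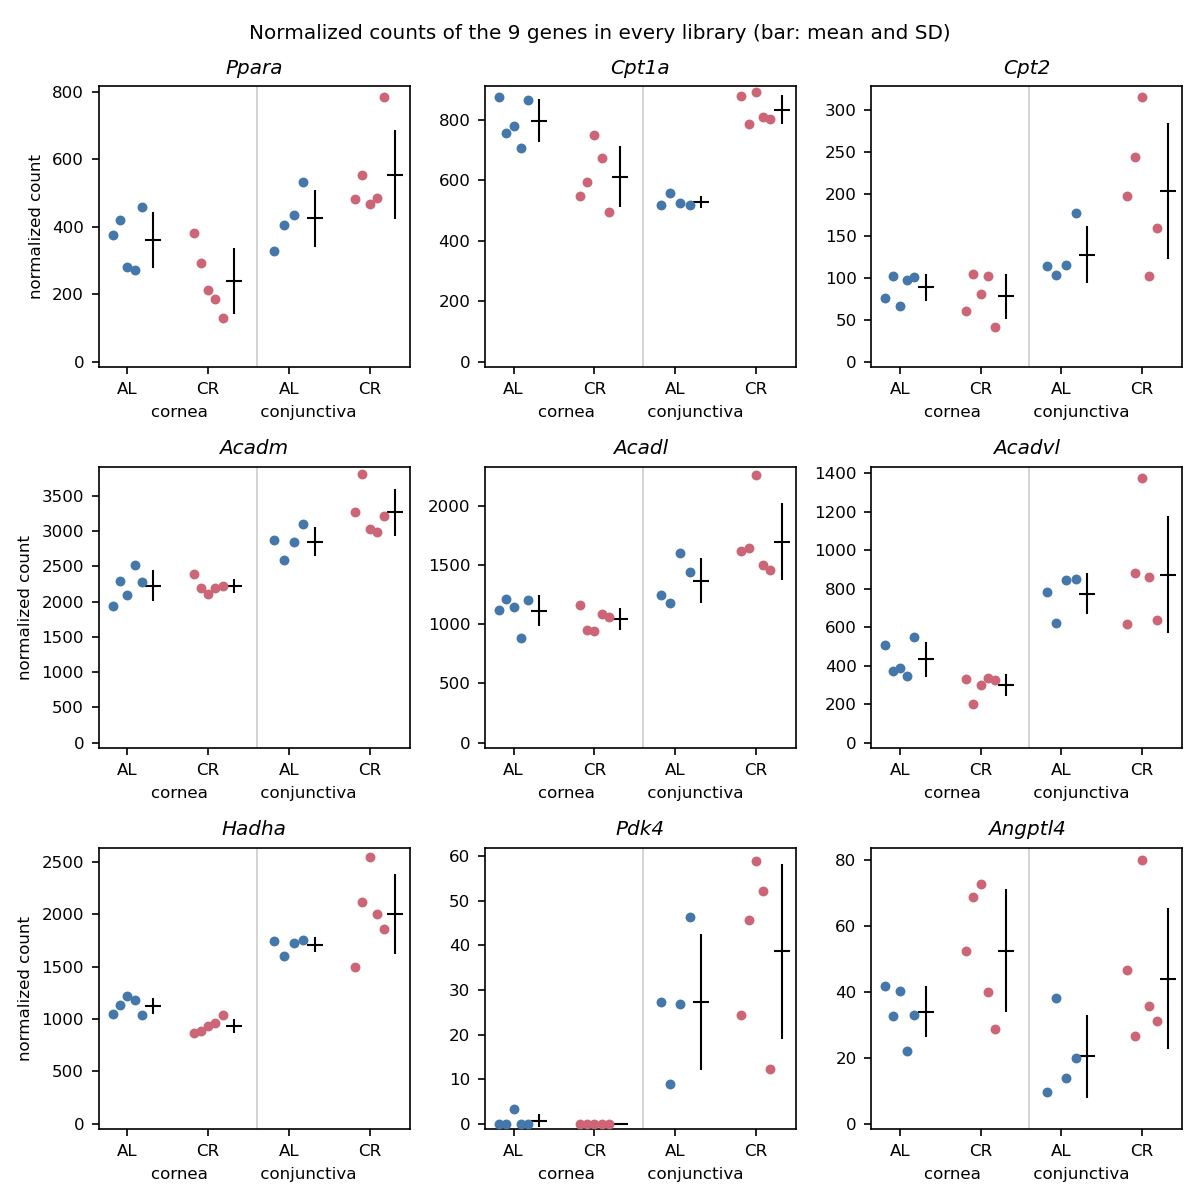
Normalized counts (linear vertical axes starting at 0) of the 9 genes in every AL (blue) and CR (red) library of the cornea and the conjunctiva, with the mean and SD of each group in black. Conjunctival *Cpt1a* separated completely, with AL between 516 and 558 and CR between 784 and 891, and *Pdk4* was at 0 in 9 of 10 cornea libraries.

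In the conjunctiva, *Cpt1a* rose 1.57-fold under CR and was the 1 gene of the 9 that passed the test. All 9 genes had a log2 change above 0, also under the 3 other scalings tried but with *Acadvl* turning without CR 3, where 48.0% of all 13929 tested genes lay above 0. The median of the 9 was 0.38, against −0.02 for all tested genes. A call as higher was made for 1 of the 9 and for 0.223% of all tested genes, and an unadjusted p under 0.05 on the higher side was reached by 2 of the 9 (*Cpt1a* and *Angptl4*) and by 4.53% of all. On the lower side 0 of the 9 did, against 4.87% of all.

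*Cpt1a* had 516, 558, 523 and 517 normalized counts in AL 1, 3, 4 and 5 of the conjunctiva, and 878, 784, 891, 808 and 803 in CR 1 to 5. The lowest CR library stood well above the highest AL library, and both groups were tight. Complete separation upward was seen for this 1 of the 9 and for 1.92% of all tested genes, and downward for 0 of the 9 and 1.95% of all. The mean rose from 528 ± 19.8 (SD, n = 4) to 833 ± 48.0 (n = 5), a log2 change of 0.65 ± 0.13 (SE, 95% interval 0.38 to 0.93, limma adjusted p = 0.0343). The call was lost in 7 of the 9 fits that left out 1 library (AL 1, 3, 4 or 5, or CR 1, 2 or 4). There the log2 change was 0.64 to 0.68 and the adjusted p 0.0595 to 0.141, and it held without CR 3 or CR 5. Over all 22 alternatives the log2 change was 0.57 to 0.696 and the adjusted p 0.00965 to 0.3201.

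*Ppara* had 329, 404, 434 and 532 normalized counts in AL 1, 3, 4 and 5 and 481, 554, 467, 486 and 785 in CR 1 to 5. Only CR 2 and CR 5 lay above all AL libraries, and CR 5 stood apart. The log2 change was 0.38 ± 0.19 (SE, limma adjusted p = 0.541). Meibomian gland markers summed to 27954 normalized counts in CR 5 and to 1703 to 3360 in the other conjunctiva libraries, and the r of *Ppara* with that sum was 0.81 over 9 libraries that share their depth and diet. Without CR 5 the log2 change of *Ppara* was 0.24.

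*Angptl4* had the largest fitted log2 change of the 9 in the conjunctiva, without passing the test. It had 9.65, 38.2, 13.99 and 19.99 normalized counts in AL 1, 3, 4 and 5 and 46.8, 26.7, 80.1, 35.9 and 31.0 in CR 1 to 5. AL 3 lay within the CR values, and the other AL libraries lay below all of them. The log2 change was 1.13 ± 0.50 (SE, limma adjusted p = 0.496), at read numbers between 12 and 83.

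Among the enzymes, *Cpt2* had 114, 103, 115 and 177 normalized counts in AL 1, 3, 4 and 5 and 198, 244, 315, 102 and 159.6 in CR 1 to 5. Its groups overlapped, with CR 4 the lowest library of all and CR 5 below AL 5 (log2 change 0.61 ± 0.29, SE, limma adjusted p = 0.538). The dehydrogenases and *Hadha* had smaller log2 changes, and their groups overlapped. *Acadl* had 1369 ± 191 under AL and 1698 ± 325 under CR (SD, n = 4 and 5, log2 change 0.30 ± 0.16, SE). *Acadm* had 2851 ± 207 and 3265 ± 331 (0.19 ± 0.13), and *Acadvl* 774 ± 107 and 873 ± 305 (0.12 ± 0.21). *Hadha* had 1707 ± 71.2 and 2004 ± 383 (0.21 ± 0.15). The limma adjusted p of these 4 lay between 0.562 and 0.899.

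*Pdk4*, almost absent from the cornea table, was detected in all 9 conjunctiva libraries. It had 27.3, 8.98, 26.9 and 46.3 normalized counts in AL 1, 3, 4 and 5 and 24.4, 45.7, 58.9, 52.3 and 12.2 in CR 1 to 5. The lowest values of both diets, AL 3 and CR 5, were close to each other, and the groups overlapped throughout (log2 change 0.49 ± 0.57, SE, limma adjusted p = 0.840).

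Skeletal muscle markers moved with several of these genes in the excised conjunctiva. The 9 skeletal muscle markers (such as *Ckm*, *Acta1* and *Myh4*) were all detected and summed to between 15351 and 72724 normalized counts in AL libraries. In CR libraries the sums were 16678 to 152950, the highest being CR 3. CR 3 was also the highest conjunctiva library for 7 of the 9 genes (*Cpt1a*, *Cpt2*, *Acadl*, *Acadvl*, *Hadha*, *Pdk4* and *Angptl4*), and the libraries with the least muscle signal, AL 3 and CR 5, were the lowest in *Pdk4*. Over the 9 libraries the r with the muscle sum was 0.94 for *Pdk4*, 0.84 for *Acadvl*, 0.71 for *Acadl* and 0.60 for *Hadha*. It was 0.19 for *Cpt1a* and 0.06 for *Angptl4*. Without CR 3 the log2 change of *Acadvl* was −0.06, that of *Acadl* 0.19, that of *Hadha* 0.12 and that of *Pdk4* 0.29. For *Cpt1a* it was 0.63 without CR 3 (limma adjusted p = 0.0404) and 0.65 with the muscle sum as a covariate (adjusted p = 0.0149). In the cornea the same markers summed to between 1.77 and 93.1. The part of muscle in the values of the other genes was not tested beyond these fits.

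Other tissue markers moved with diet in the conjunctiva as well. The 6 fibroblast markers, each detected, summed to between 39250 and 58882 normalized counts in AL and between 25864 and 51295 in CR libraries, and all 6 had lower fitted values under CR. The r of *Cpt1a* with that sum was −0.68. With the fibroblast sum as a covariate, the log2 change of *Cpt1a* was 0.64 and no longer passed (limma adjusted p = 0.320). With the meibomian sum it was 0.67 (adjusted p = 0.0799), and *Cpt1a* was 0.67 without CR 5 (adjusted p = 0.0364). Fat cell markers summed to 107 to 1435 in AL and 319 to 1627 in CR libraries, with all 7 detected. The 6 tested were all higher under CR (median log2 change 1.62). So were all 8 tested meibomian markers (1.91) and all 9 muscle markers (0.55), and none was called. The r with the fat sum was 0.77 for *Acadl*, 0.75 for *Acadvl* and 0.71 for *Hadha* and *Pdk4*. For the others it was 0.09 (*Angptl4*) to 0.37 (*Cpt2*), and the part of fat was not tested. In the cornea 5 of the 7 fat cell markers (*Adipoq*, *Plin1*, *Cidec*, *Retn* and *Cfd*) were at 0 in every library. Macrophage markers (5, each detected) summed to between 2029 and 2791 in AL and between 1319 and 2009 in CR libraries, with an r of −0.80 for *Cpt1a*, and their part was not tested. The covariates were chosen after the data were seen.

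**Figure D2:**
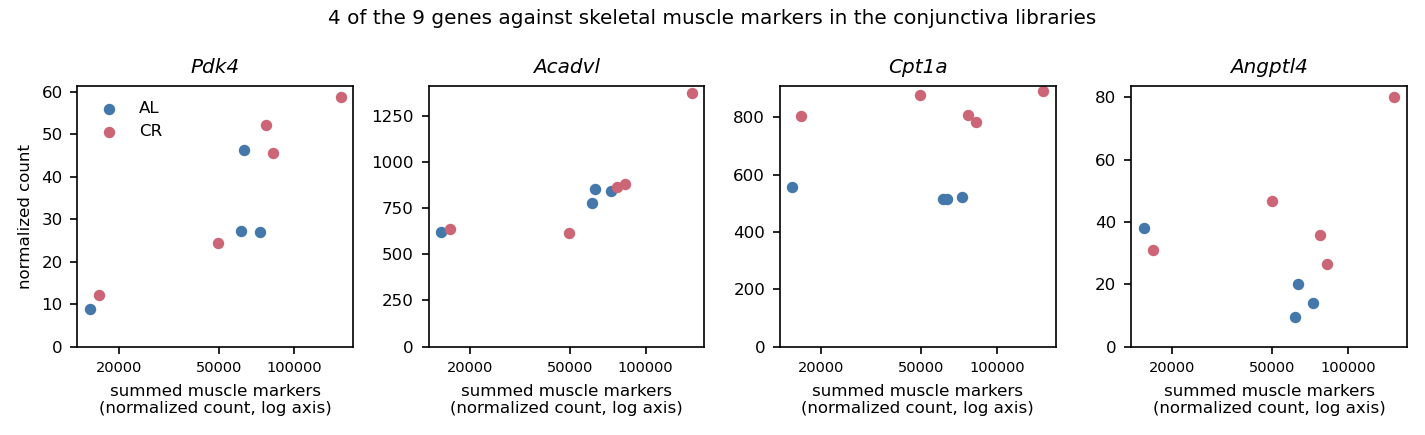
Normalized counts of *Pdk4*, *Acadvl*, *Cpt1a* and *Angptl4* (linear vertical axes from 0) against the summed normalized counts of 9 skeletal muscle markers (log horizontal axis) in the 4 AL (blue) and 5 CR (red) conjunctiva libraries. *Pdk4* was higher where the muscle sum was higher across both diets (r = 0.94), while *Cpt1a* split by diet at every muscle level (r = 0.19).

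The diet effect on *Cpt1a*, a gene at chr19:3322326-3385735 (GRCm38.p6), differed between the tissues. The log2 change in the cornea minus that in the conjunctiva was −1.05 ± 0.18 (SE, 95% interval −1.42 to −0.67, limma adjusted p = 0.0111). Of 11929 genes tested in both tissues, 0.0168% passed this test, and they were *Aqp5* and *Cpt1a*. For *Cpt1a* the difference was −0.97 to −1.12 when each of the 19 libraries was left out in turn, and it missed the threshold without AL 1 of the conjunctiva (adjusted p = 0.0555). It also missed it when each library's percentage of genes at 0 entered the fit (difference −1.03, limma adjusted p = 0.104). The test treats the tissues as independent. Taken per shared title, which pairs the tissues of what may be the same mouse, the difference was −1.004 and also missed it (adjusted p = 0.736, with 0 genes of all past it). Only libraries whose title occurs in both tissues entered that fit, so it also rests on fewer libraries. For *Aqp5* the difference was −1.21 ± 0.20 (SE, limma adjusted p = 0.0111), made up of −0.61 (cornea) and 0.60 (conjunctiva).

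The same sign held for all 8 genes tested in both tissues, where 53.9% of all genes had a difference below 0. For 6 of the 8 the change was below 0 in the cornea and above 0 in the conjunctiva, as for 21.1% of all genes. An unadjusted p under 0.05 below 0 was reached by 5 of the 8 and by 3.78% of all genes. These were *Cpt1a*, *Ppara* (−1.04 ± 0.31, SE, limma adjusted p = 0.387), *Cpt2* (−0.85 ± 0.41), *Acadvl* (−0.65 ± 0.27) and *Hadha* (−0.48 ± 0.18). The others were *Acadl* at −0.40 ± 0.19, *Acadm* at −0.19 ± 0.16 and *Angptl4* at −0.57 ± 0.62. The median of the 8 differences was −0.61, against −0.03 over all genes. The 8 are not independent, since they come from the same libraries.

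**Figure D3:**
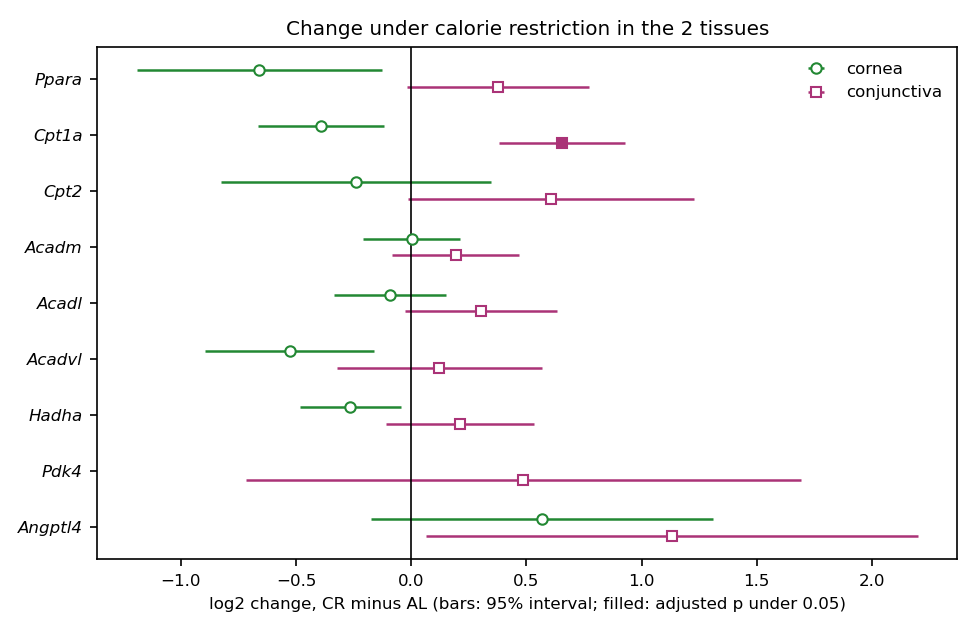
Log2 change under CR (horizontal axis, CR minus AL, bars give 95% intervals) of each gene in the cornea (green circles) and the conjunctiva (purple squares), filled where the limma adjusted p was under 0.05. Each cornea point lay to the left of its conjunctiva point, and only conjunctival *Cpt1a* (0.65) was filled. *Pdk4* was not tested in the cornea.

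The pathway around the 9 genes was followed in lists chosen by function. Among all tested genes, 46.9% in the cornea and 48.0% in the conjunctiva had a change above 0, and 1.22% and 0.359% were called. Only the 9 genes were set against the tissue markers that moved with diet. The part of tissue makeup in the values of the other listed genes was not tested. In the carnitine shuttle, which moves acyl groups into mitochondria, 0 of 5 genes were called in the cornea and 1 of 6 (*Cpt1a*) in the conjunctiva, with median log2 changes of −0.34 and 0.54. Leaving out *Cpt1a* and *Cpt2*, the medians were −0.34 over 3 genes and 0.45 over 4. *Slc25a20*, the carnitine-acylcarnitine carrier between Cpt1a and Cpt2, had 209 normalized counts under AL and 291 under CR in the conjunctiva (log2 change 0.51 ± 0.20, SE, limma adjusted p = 0.406). *Cpt1c*, the brain-type form, had −0.75 ± 0.53 there. In the cornea *Crat*, which makes acetylcarnitine, had −0.47 ± 0.29 and *Slc22a5*, the plasma membrane carnitine transporter, had 0.46 ± 0.32.

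Of the 18 genes of mitochondrial beta-oxidation, 0 were called in either tissue. In the cornea 12 of 18 had a change below 0 (median −0.09), or 15 with upper-quartile scaling. In the conjunctiva 16 of 18 had one above 0 (median 0.20), or 14 with upper-quartile scaling or voom. The subunits of the electron transfer flavoprotein, which takes electrons from the acyl-CoA dehydrogenases, had log2 changes of opposite sign in the cornea. *Etfb* had 990.5 normalized counts under AL and 585 under CR (log2 change −0.78 ± 0.20, SE, limma adjusted p = 0.0639), and *Etfa* had 369 and 539.7 (0.55 ± 0.18, adjusted p = 0.131). In the conjunctiva *Eci2*, an enoyl-CoA isomerase, had 0.56 ± 0.19 (adjusted p = 0.288) and *Acad11* had −0.22 ± 0.27.

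In peroxisomal beta-oxidation, 0 genes were called (11 tested in the cornea, 13 in the conjunctiva). The acyl-CoA thioesterase gene *Acot8* had 228 normalized counts under AL and 137 under CR in the cornea without overlap (log2 change −0.76 ± 0.20, SE, limma adjusted p = 0.0639). *Decr2* had 0.12 ± 0.17 there. In the conjunctiva *Acaa1b* had 1.39 ± 0.75 and *Acox3* −0.26 ± 0.21. The ketone body list had 0 called genes of 4 and of 6. In the conjunctiva *Bdh2* had −1.26 ± 0.56 (log2 change and SE, limma adjusted p = 0.509). In the cornea *Acat1* had 0.29 ± 0.14 and *Oxct1* −0.21 ± 0.11.

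Among the PPARs, their partners and coactivators, 10 of 11 genes in the cornea had a change below 0 (median −0.20) and 10 of 13 in the conjunctiva one above 0 (median 0.20), with 9 in each case under voom. The exception in the cornea was the coactivator *Ncoa1*, which had 442 normalized counts under AL and 612 under CR without overlap and passed the adjusted threshold but not the fold (log2 change 0.47 ± 0.12, SE, limma adjusted p = 0.0482), as 1.53% of all genes passed on adjusted p alone. *Lpin1*, a phosphatase that also acts as a coactivator, had −0.67 ± 0.20 in the cornea (adjusted p = 0.101). In the conjunctiva *Ppargc1a*, the coactivator PGC-1alpha, had 381 and 538 normalized counts (0.57 ± 0.22, adjusted p = 0.420).

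The PPAR-alpha fasting targets, which include *Pdk4* and *Angptl4*, had 0 called genes of 9 in the cornea (median −0.07) and 0 of 14 in the conjunctiva, where 12 of 14 lay above 0 (median 0.498), or 10 with upper-quartile scaling or voom. Leaving out the 9 genes the conjunctival median was 0.49. In the cornea *Acsl1*, which activates long chain fatty acids, had 0.13 ± 0.11 (SE) and *Ucp3* −1.25 ± 0.77. The conjunctival exceptions included *Vnn1* at −0.10 ± 0.37. In the pyruvate dehydrogenase system, *Pdhx*, the subunit that binds the E3 enzyme to the complex, was the 1 gene called. It fell in the cornea from 413 ± 59.2 (SD, n = 5) to 235 ± 67.4 (n = 5) normalized counts without overlap (log2 change −0.85 ± 0.20, SE, limma adjusted p = 0.0380). The kinase *Pdk1* had 491 and 656 normalized counts in the cornea, also without overlap (0.41 ± 0.13, adjusted p = 0.106). In the conjunctiva *Pdp1*, the opposing phosphatase, had 0.46 ± 0.21 and *Mpc1* −0.28 ± 0.54.

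Genes that act in the release and uptake of fat were also compared. All 5 genes of the lipolysis list tested in the cornea had a change below 0 (median −0.31), and all 6 in the conjunctiva one above 0 (median 0.23), as they did under the 3 other scalings. The list mixes functions, since it also holds the inhibitor *G0s2*, tested in the conjunctiva only, and *Plin2*, whose own value is the cornea median. *Abhd5*, the coactivator of adipose triglyceride lipase, fell in the cornea from 647 ± 42.0 (SD, n = 5) to 441 ± 69.5 (n = 5) normalized counts, past adjusted p but just under the fold of 1.5 (log2 change −0.56 ± 0.13, SE, limma adjusted p = 0.0377). *G0s2*, an inhibitor of that lipase, had 0.33 ± 0.20 in the conjunctiva. In the lipoprotein lipase system, the target of Angptl4, 0 genes were called. *Lpl* itself had 46.9 ± 16.7 normalized counts under AL and 21.9 ± 31.2 under CR in the cornea (SD, n = 5 each). It was at 0 in 3 CR libraries, while another CR library, at 66.8, lay above every AL library. Its fitted log2 change of −3.20 ± 1.19 (SE, limma adjusted p = 0.190) compares log values that include those zeros. *Vldlr* had 0.71 ± 0.23 in the cornea. In the conjunctiva *Gpihbp1* had 1.24 ± 0.74 and *Lmf1* −0.10 ± 0.35.

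Fatty acid uptake and activation had 0 called genes of 9 in the cornea and 0 of 13 in the conjunctiva, with medians of −0.14 and 0.24. The fatty acid transporter *Cd36* had 257 normalized counts under AL and 562 under CR in the conjunctiva (log2 change 1.36 ± 0.57, SE, limma adjusted p = 0.510), and *Slc27a3* had −0.74 ± 0.32. In the cornea *Acsl3* had 0.27 ± 0.11 and *Fabp5* −0.76 ± 0.37. The genes that set malonyl-CoA, the inhibitor of Cpt1a, had 0 called genes of 8 and of 9. *Acaca*, acetyl-CoA carboxylase, had fitted changes below 0 in both tissues, with 382 and 217 normalized counts in the cornea (−0.92 ± 0.28, adjusted p = 0.115) and 258 and 164 in the conjunctiva (−0.64 ± 0.24, adjusted p = 0.386). *Mlycd*, which breaks malonyl-CoA down, had 0.58 ± 0.28 in the conjunctiva, and the kinase subunit *Prkaa2* 0.21 ± 0.16 in the cornea.

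**Figure D4:**
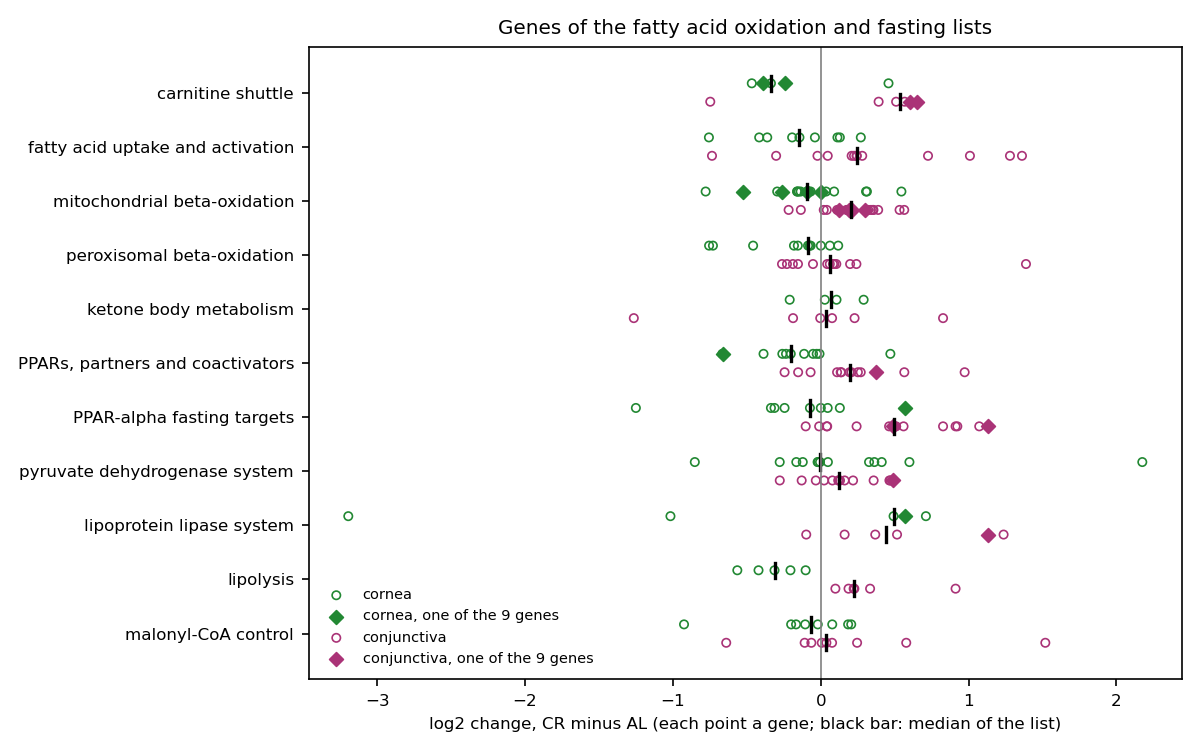
Log2 change under CR (horizontal axis, CR minus AL) of each tested gene in 11 lists, in the cornea (green, upper row of each list) and the conjunctiva (purple, lower row), with filled diamonds for the 9 genes and black bars for list medians. The carnitine shuttle medians were −0.34 and 0.54, and the lipolysis medians −0.31 and 0.23.

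The 9 genes were also compared with each other across the libraries of 1 tissue. Of 36 gene pairs in the conjunctiva, 34 had a positive r (median 0.48, range −0.12 to 0.87), and of 28 pairs in the cornea 18 did (median 0.08, range −0.73 to 0.66). These are descriptions over 9 and 10 libraries that share depth, diet and tissue makeup, and the difference was not tested. The spread within a group was smallest for *Cpt1a* in the conjunctiva (coefficients of variation 3.74% in AL and 5.76% in CR) and large for *Angptl4* (61.4% and 48.8%) and *Pdk4* (55.7% and 50.9%). In the cornea CR 7 was the lowest library, or tied at 0, for 4 of the 9 genes, and it also held the highest conjunctival epithelium marker sum there.

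The genes most like each of the 9 were taken from 11921 others by Pearson r over the 19 libraries, after centring each tissue. *Cpt1a* was followed most closely by *Aqp5* (r = 0.81), *Pcyt1a* (0.80), an enzyme of phosphatidylcholine synthesis, and *Edc3* (0.80). *Cpt2* was closest to *Hadh* (0.84), a dehydrogenase of the same pathway, then *Slc25a12* and *Gp1bb*. *Acadl* was closest to the respiratory chain genes *Ndufa13* (0.88) and *Ndufb8* (0.87) and the citric acid cycle gene *Suclg1* (0.87). *Acadvl* was closest to *Pdhx* (0.84), *Fto* and *Vwa8*, and *Hadha* to *Ogdh* (0.81), another citric acid cycle gene, *Lrrc20* and *Pptc7*. *Ppara* had *Ctnnbip1* (0.79), *Larp1b* and *Lrrcc1*, and *Acadm* had *Dyrk1b* (0.73), *Txlng* and *Tlk2*. *Pdk4* had *Togaram2* (0.78), *Pde4dip* and the glycolytic gene *Aldoa*, and its cornea values are nearly all 0. *Angptl4* had *Ajuba* (0.73), *Las1l* and *Glul*. The libraries share depth and diet, and no p was computed.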

How the data were processed

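The authors trimmed reads with cutadapt, aligned them with STAR to mm10, counted genes with HTSeq and normalized with DESeq2 size factors on ROSALIND, and the submitters' processing notes name GRCm39. The labels name a stranded mRNA kit and the methods another maker's oligo(dT)-primed kit, so the library type and the use of strand are unsettled. *Cpt1a*, *Acadl* and *Acadvl* overlap other annotated genes, whose reads may not be separable. The deposited values are log2 of the count over the size factor, plus 1, scaled per tissue, and were turned back into normalized counts and whole reads (100% whole within 0.01 reads). All columns were mapped. Of 24557 features, 5 with a repeated symbol were left out.

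Diets were compared within each tissue with limma 3.58.1 (statmod 1.5.0, R 4.3.3), with intensity trend and robust moderation, on log2(normalized count + 1), for genes whose mean reached 10. Fold changes are on that scale, which usually makes changes of low genes look smaller. For a gene with some libraries at 0, the fit can instead give a larger change than its printed means. P-values were two-sided and Benjamini-Hochberg adjusted over all tested genes. For the tissue difference, one log2 change was subtracted from the other and divided by the combined standard error (Satterthwaite degrees of freedom). The procedure was tested on simulated counts. The 95% intervals come from the spread between libraries, and the floors of genes at 0 cover counting error only. The labels give replicates as separate samples, and the study's legends count them as mice.

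The 9 genes and the lists were chosen with earlier results of these data known. By rule, non-members were named if past adjusted p in a list, or with the smallest p on each side of a list in a tissue, as were the 3 genes most like each of the 9. Of the genes so named, 2 are not reported here. Other settings tried were a pseudocount of 0.5 or of 10, a filter at 50 or none, quantile and upper-quartile scaling, array weights, voom on recovered reads, the share of genes at 0, a replicate block, and leaving out each library. Marker covariates were added after the data were seen.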

Additional observations from a re-analysis of the deposited data

Results flagged for a closer look

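Of 34 groups of values examined, 4 held a library far from the others by Dixon's test, and chance gives about 1 in 20. In the cornea, *Acadl* had 888 normalized counts in AL 4, where the other AL libraries had 1123 to 1216. *Acadvl* had 201 in CR 2 of the cornea, against 302 to 336 in the other CR libraries. In the conjunctiva, *Cpt1a* had 558 in AL 3, against 516 to 523 in the other AL libraries, which is still under every CR library. *Acadl* had 2262 in CR 3 of the conjunctiva, against 1458 to 1649.5 in the others, and CR 3 also held the highest skeletal muscle marker sum (152950 normalized counts).

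The change of *Cpt1a* under CR differed between cornea and conjunctiva by −1.05 on the log2 scale (limma adjusted p = 0.0111), with 4 of 5 CR cornea libraries below every AL library and 5 of 5 CR conjunctiva libraries above.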

How the results depend on the processing

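Over 563 alternative values for single genes, 533 kept their direction and their side of the threshold, 15 lost the call, 4 gained it and 11 turned sign. For conjunctival *Cpt1a* the call was lost with upper-quartile scaling (log2 change 0.57), voom (0.57), the replicate block (0.68) and the meibomian and fibroblast covariates. The replicate block pairs AL and CR libraries by title number only, and no label says that such libraries belong together. Its log2 change there equals that without CR 2, which has no AL partner, and the pairing leaves fewer degrees of freedom. Cornea *Ppara* and *Acadvl* passed with array weights. The sign turned for cornea *Acadm* with quantile normalization (−0.013), upper-quartile scaling (−0.15), the share of genes at 0 (−0.034), the lacrimal covariate (−0.13) and without AL 1, AL 3 or CR 1 (−0.046 to 0.048 with 1 library left out). It also turned for cornea *Acadl* with the share of genes at 0 (0.075) and the lacrimal covariate (0.021), for cornea *Cpt2* under the replicate block (0.012), and for conjunctival *Acadvl* without CR 3 (−0.057 to 0.23 with 1 library left out). The causes were not tested. Upper-quartile scaling moved the median change of all genes to −0.18 in the cornea and −0.10 in the conjunctiva, and voom moved it to −0.11 in the conjunctiva.

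Calls among the 9 genes in the cornea went from 0 to 2 with array weights and ranged from 0 to 1 with 1 library left out. In the conjunctiva they went from 1 to 0 with upper-quartile scaling, voom, the replicate block and the meibomian and fibroblast covariates, and ranged from 0 to 1. Over all cornea genes, 150 calls became 705 with array weights, 62 with the share of genes at 0, 46 with the replicate block and 26 with the lacrimal covariate, and 53 to 536 with 1 library left out (536 without AL 4). Over all conjunctiva genes, 50 became 149 with array weights, 10 with the replicate block, and 219, 30 and 4 with the muscle, meibomian and fibroblast covariates, and 26 to 127 with 1 library left out (127 without CR 3). For the tissue difference, 2 genes became 18 with array weights. They became 0 with the share of genes at 0, where the 1 gene of the 9 was also lost. With 1 library left out they became 0 to 7, and the 1 gene became 0 to 1. The tissue difference was not refitted with upper-quartile scaling, voom, the other filters or the marker covariates.

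Libraries with the same number or title were not closely alike. Over so few libraries, and between different tissues, this cannot show whether same-titled libraries came from the same mouse. Deviations of same-numbered AL and CR libraries had correlations of −0.30 to 0.29 (cornea) and −0.06 to 0.05 (conjunctiva), and same-titled libraries across tissues of −0.42 to 0.14. Taken per shared title as a replicate block, the tissue difference of *Cpt1a* was −1.004, short of the threshold (limma adjusted p = 0.736), with 0 genes past the threshold and 0 of the 9. That fit used only libraries whose title occurs in both tissues. *Angptl4* and *Pdk4* rested on at most 96 reads in a library, which limits what could be detected for them.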
